A study of Mus musculus with 6 samples.

Results

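Akt1 and 7 further genes of the phosphoinositide 3-kinase (PI3K) pathway were described in monocyte-lineage cells of inflamed bone, from mice given a JAK inhibitor or vehicle. The 8 genes were Akt1 and its paralog Akt2, the PI3K catalytic subunits Pik3cd and Pik3cg, the PI3K regulatory subunits Pik3r1 and Pik3r5, the lipid phosphatase Inpp5d and the kinase Mtor. They were chosen by name, with Akt1 selected on its measured difference between the treatments in these same libraries, where it was 1 of 15 genes past the threshold used. All 8 were found among the 24346 gene symbols of each library, and all 8 were among the 11301 genes that reached 1 FPKM in at least 1 library. FPKM, a fragment count scaled to transcript length and to the mapped reads of the library, is the unit of every level given here.

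All 6 mice were CX3CR1-EGFP animals, in which EGFP driven from the Cx3cr1 promoter marks cells of the monocyte lineage. Each received LPS, a bacterial lipopolysaccharide that provokes inflammatory bone loss, at 20 mg/kg into the periosteum of the calvaria. In the JAK inhibitor group, 3 mice were given the JAK1-selective compound ABT-317 orally at 60 mg/kg in 2 doses per day, and in the vehicle group 3 mice were given vehicle on the same schedule. On day 5 EGFP+ cells were sorted from calvarial bone marrow and their RNA was sequenced, with 1 library per mouse. The age and sex of these mice are not given in the sources used here. No mouse without LPS was included, so every level below belongs to inflamed marrow. EGFP expression from this promoter is not limited to osteoclast precursors, the name the labels give to the sorted cells.

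The libraries summed to between 688372 and 775790 FPKM, and read counts are not given, so the depth behind each value is unknown. Csf1r, the M-CSF receptor of monocytes, macrophages and osteoclast precursors, lay between 354.9 and 421.9 FPKM in all 6 libraries. Ptprc, which encodes CD45, lay between 94.3 and 130.9 FPKM. Neutrophil transcripts were abundant too, and the 7 neutrophil markers found summed to between 16608 and 23534 FPKM. The third vehicle library stood apart, with Cx3cr1 at 15.5 FPKM against 29.5 to 36.1 in the other 5 and with Ctsk, the collagen-degrading protease of osteoclasts, at 167.5 FPKM against 7.55 to 55.4.

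PI3K is a family of lipid kinases that phosphorylate a membrane phosphoinositide when a receptor is engaged. The resulting lipid recruits Akt kinases to the membrane, where they are phosphorylated and act on regulators of survival, growth, glucose uptake and the FoxO transcription factors. Lipid phosphatases such as SHIP1, the product of Inpp5d, remove the signal. In the osteoclast lineage M-CSF and RANKL both engage PI3K, and JAK kinases signal mainly through STAT transcription factors while some cytokine receptors that use them also reach PI3K. All of this acts largely through phosphorylation, which RNA levels do not measure.

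RefSeq start sites were available for all 8 genes, and the 250 bases before each of their 16 start sites were read from build GRCm38.p6. The sequences that follow show a promoter window of Akt1, the gene with separate groups, and the matches in other members to the STAT and FoxO letters. These letters were shown because the factors lie downstream of JAK kinases and of Akt. Capitals mark the matching letters, and each line is written 5′ to 3′ on the strand of its gene. The motifs were picked with the sequences in view, and a match describes letters only.

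Akt1, chr12:112674885-112675134, minus strand: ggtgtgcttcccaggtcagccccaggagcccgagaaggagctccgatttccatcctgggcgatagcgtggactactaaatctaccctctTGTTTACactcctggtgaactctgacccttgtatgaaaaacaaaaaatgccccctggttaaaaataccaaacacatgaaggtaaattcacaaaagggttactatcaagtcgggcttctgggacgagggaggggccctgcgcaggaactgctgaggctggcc
Pik3cg, chr12:32208546-32208572, minus strand: ttttcctaaaGTAAACAaatgatcctc
Akt2, chr7:27591382-27591410, plus strand: tcactgggccTTCGGGGAAagcctacttg
Mtor, chr4:148448344-148448372, plus strand: accggaagtgTTCGTGGAAgtgaccgaag

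The FoxO letters, GTAAACA searched on both strands, began 161 bases before a start site of Akt1 and 92 bases before a start site of Pik3cg. They occurred in 2 of the 16 windows of the 8 genes and in 3.17% of 32851 windows of all genes. The STAT letters, TTCNNNGAA, which read the same on both strands, began 160 bases before a start site of Akt2 and 228 bases before a start site of Mtor. The other windows of Akt1 (chr12:112674277-112674526), Pik3cg and Akt2 held no match to any of the motifs searched. The STAT letters were in 2 of the 16 windows and in 7.02% of all windows. The IRF letters, GAAA and again GAAA with any 2 bases between, searched on both strands, were in 0 of the 16 windows and in 2.98% of all. GC boxes, GGGGCGGGG on either strand, were in 4 of the 16 windows, those of Pik3cd, Pik3r1 and Pik3r5, and in 10.4% of all.

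Akt1 encodes the Akt kinase found most widely across tissues. The gene lies at chr12:112653821-112674884 on the minus strand (GRCm38, GENCODE M21). Its level was 157.1, 154.0 and 161.4 FPKM in vehicle mice 1, 2 and 3, and 94.7, 77.4 and 100.5 FPKM in JAK inhibitor mice 1, 2 and 3. The lowest vehicle mouse was far above the highest JAK inhibitor mouse, so the groups did not overlap. The mean was 157.5 ± 3.69 FPKM in vehicle mice and 90.9 ± 12 FPKM in JAK inhibitor mice (SD, n = 3 per group), 1.73 times as high with vehicle. The log2 difference, taken as JAK inhibitor minus vehicle on the log2(FPKM + 1) scale in every case below, was -0.80 with a standard error of 0.11. The vehicle mice were the more alike, with a coefficient of variation of 2.34% against 13.2% with JAK inhibitor. Akt1 was selected on this very difference, which is therefore a description and carries no test here. In sorted cells measured in bulk, fewer cells of a type that expresses a gene and less RNA of that gene per cell cannot be told apart. Without the third vehicle mouse, the library that stood apart, the log2 difference of Akt1 was -0.78.

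The Akt1 interval of the annotation holds no other gene of the tables than the microRNA Mir6939, on the same strand and listed at 0 FPKM in all 6 libraries. None of the nearest genes had separate groups as Akt1 did. Siva1, a proapoptotic gene beside it, lay between 186.5 and 217.4 FPKM with a log2 difference of -0.05 (SE 0.09), and Adssl1, an enzyme of purine synthesis, had 0.03 (SE 0.10). Zbtb42, a zinc finger gene, was low, between 1.83 and 5.89 FPKM, with -0.38 (SE 0.27). Its 95% interval, -0.99 to 0.24, is wide and includes the value of Akt1. The groups overlapped for all 3 neighbours.

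Akt2, the paralog best known for insulin-stimulated glucose uptake, lies at chr7:27591552-27640826 on the plus strand. Its level was 18.1, 19.1 and 21.7 FPKM in the vehicle mice and 18.8, 14.1 and 21.8 FPKM in the JAK inhibitor mice. Both the lowest and the highest value were in JAK inhibitor mice, and the groups overlapped. The means were 19.6 ± 1.83 and 18.2 ± 3.88 FPKM (SD, n = 3), and the log2 difference of -0.12 was smaller than its standard error of 0.16.

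**Figure D1:**
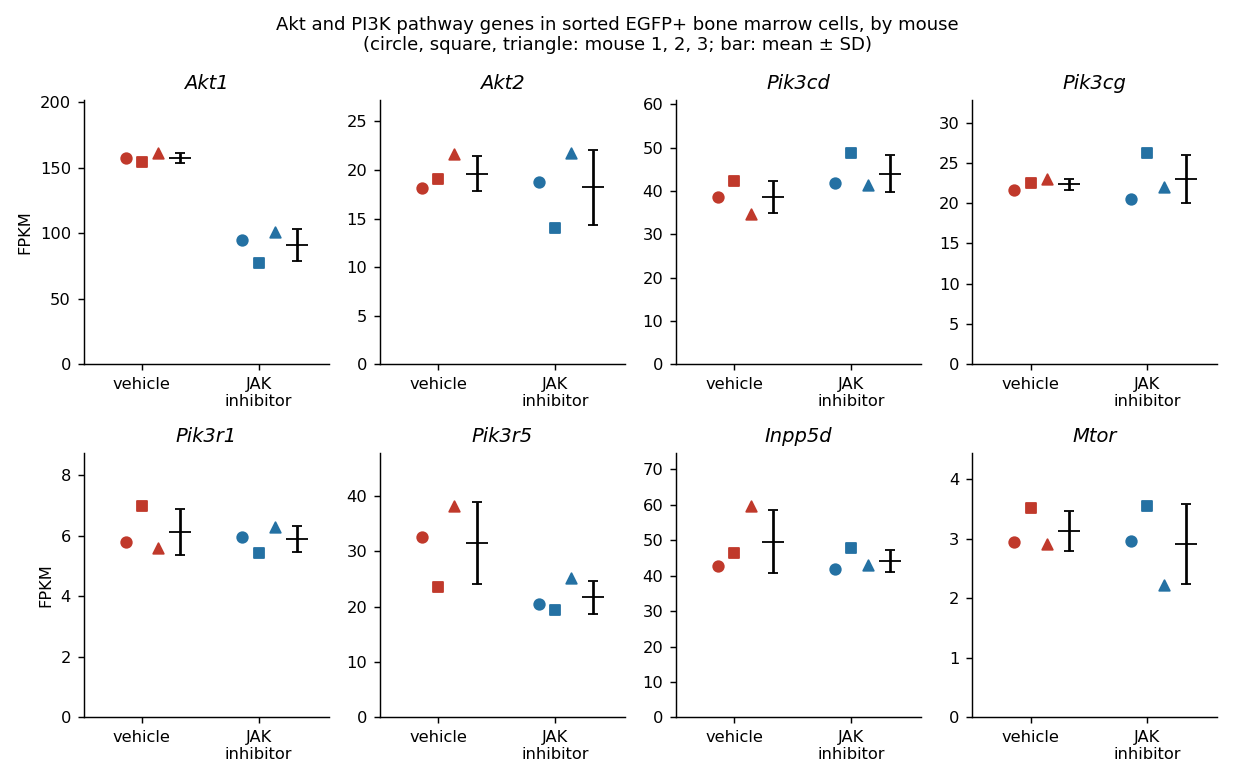
Level of each of the 8 genes in FPKM (vertical axis, starting at 0) in 3 vehicle mice (red) and 3 JAK inhibitor mice (blue), with a symbol for each mouse and a bar for the mean ± SD. Akt1 was between 154.0 and 161.4 FPKM with vehicle and between 77.4 and 100.5 FPKM with JAK inhibitor, while the values of the other 7 genes overlapped between the groups.

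Akt1 supplied most of the summed Akt1 and Akt2 transcript in every mouse, as the plot of family composition shows. It made up 89.7, 89.0 and 88.2% of the summed FPKM of Akt1 and Akt2 in the vehicle mice and 83.4, 84.6 and 82.2% in the JAK inhibitor mice. The share of Akt2 was 11.1 ± 0.752% with vehicle and 16.6 ± 1.22% with JAK inhibitor (SD, n = 3). A ratio within a library does not depend on how that library was scaled. The ratio of Akt1 to Akt2 was 8.68, 8.05 and 7.45 in the vehicle mice and 5.04, 5.50 and 4.61 in the JAK inhibitor mice, again without overlap. This was a log2 difference of -0.67, and it stayed between -0.74 and -0.61 when any 1 mouse was left out. Akt1 was selected on this same contrast, so the shares and ratios too are descriptions and carry no test.

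Class I PI3K catalytic subunits are the kinases that make the lipid signal, and the delta and gamma forms are the ones typical of leukocytes. Pik3cd, the delta form, at chr4:149649168-149702571 on the minus strand, was at 38.6, 42.2 and 34.8 FPKM in vehicle mice and 41.8, 48.8 and 41.4 FPKM in JAK inhibitor mice. Vehicle mouse 2 lay above JAK inhibitor mice 1 and 3, so the groups overlapped. The log2 difference was 0.19 (SE 0.11), the larger of the 2 above 0 among the 8 genes. Pik3cg, the gamma form that couples to G protein-coupled receptors such as those for chemokines, lies at chr12:32173473-32208659 on the minus strand. It was at 21.6, 22.4 and 23.0 FPKM in vehicle mice and 20.5, 26.3 and 22.0 FPKM in JAK inhibitor mice. The vehicle values lay inside the range of the JAK inhibitor values, and the log2 difference was 0.03 (SE 0.12).

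Pik3cd led the catalytic family in both groups, followed by Pik3cg. Pik3cd made up 52.8 ± 3.16% of its summed FPKM with vehicle and 56.9 ± 0.859% with JAK inhibitor, and Pik3cg made up 30.7 ± 1.69% and 29.6 ± 1.29% (SD, n = 3). Pik3cb and Pik3ca, the beta and alpha forms expressed in most tissues, supplied 11.8 ± 2.81% and 4.73 ± 1.28% with vehicle and 9.47 ± 0.607% and 3.98 ± 0.784% with JAK inhibitor. Their log2 differences were -0.19 (SE 0.16) for Pik3cb and -0.12 (SE 0.22) for Pik3ca, and the groups overlapped for both.

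Regulatory subunits hold the catalytic subunits in place and link them to receptors. Pik3r1, the main partner of the alpha, beta and delta forms, at chr13:101680563-101768217 on the minus strand, was low. It was at 5.80, 6.99 and 5.60 FPKM in vehicle mice and 5.98, 5.43 and 6.28 FPKM in JAK inhibitor mice, with a log2 difference of -0.05 (SE 0.15). The values were interleaved between the groups. Pik3r2, its paralog, was at 13.9 ± 3.52 FPKM with vehicle and 10.4 ± 0.265 FPKM with JAK inhibitor (SD, n = 3), with overlap. Pik3r3 stayed below the filter of 1 FPKM in every library.

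Pik3r5, a regulatory partner of the gamma form, lies at chr11:68432121-68497849 on the plus strand. It was at 32.7, 23.6 and 38.2 FPKM in vehicle mice and 20.5, 19.5 and 25.1 FPKM in JAK inhibitor mice. Vehicle mouse 2 lay below JAK inhibitor mouse 3, so the groups overlapped, although the other vehicle mice were above every JAK inhibitor mouse. The means were 31.5 ± 7.36 and 21.7 ± 3.0 FPKM (SD, n = 3), 1.45 times as high with vehicle. The log2 difference of -0.50 (SE 0.18) was the second in size among the 8 genes, and without the third vehicle mouse it was -0.35. Pik3r6, the other regulatory partner of the gamma form, was at 33.0, 33.7 and 41.1 FPKM in vehicle mice and 25.5, 31.1 and 29.3 FPKM in JAK inhibitor mice. All 3 vehicle mice were above all 3 JAK inhibitor mice, with a log2 difference of -0.32 (SE 0.13), not past the adjusted threshold (limma, adjusted p = 0.267). Together Pik3r5 and Pik3r6 supplied the larger part of the regulatory transcripts. Pik3r5 held 35.7 ± 5.83% with vehicle and 32.4 ± 2.93% with JAK inhibitor, and Pik3r6 held 40.9 ± 0.482% and 42.9 ± 3.41%.

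**Figure D2:**
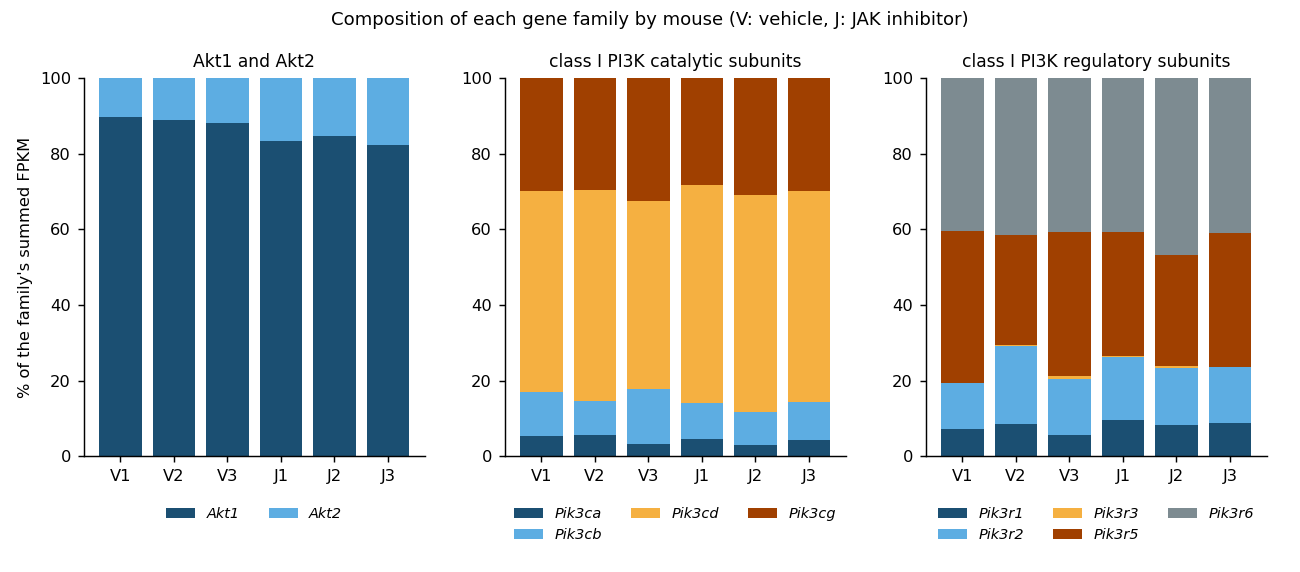
Share of each gene in the summed FPKM of its family (vertical axis, percent) in vehicle mice V1 to V3 and JAK inhibitor mice J1 to J3, for Akt1 with Akt2, class I PI3K catalytic subunits and class I PI3K regulatory subunits. Akt1 held between 88.2 and 89.7% of the summed Akt1 and Akt2 in vehicle mice and between 82.2 and 84.6% in JAK inhibitor mice, and Pik3cd was the largest catalytic share in all 6.

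Inpp5d, which encodes the SHIP1 phosphatase of blood cells, lies at chr1:87620312-87720507 on the plus strand. It was at 42.7, 46.5 and 59.7 FPKM in vehicle mice and 41.9, 47.8 and 42.9 FPKM in JAK inhibitor mice. Vehicle mouse 3 was the highest and the other 5 lay between 41.9 and 47.8 FPKM, so the groups overlapped. The log2 difference was -0.15 (SE 0.13). Inpp5d supplied 97.9 ± 0.373% of the summed SHIP transcripts with vehicle and 96.9 ± 0.852% with JAK inhibitor, the rest being Inppl1.

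Mtor, the kinase of both mTOR complexes, which acts upstream of Akt in one and downstream in the other, lies at chr4:148448611-148557683 on the plus strand. It was at 2.95, 3.51 and 2.91 FPKM in vehicle mice and 2.97, 3.56 and 2.22 FPKM in JAK inhibitor mice. The highest and the lowest value were both in JAK inhibitor mice, and the log2 difference was -0.09 (SE 0.19). Angptl7, which overlaps Mtor on the other strand, reached at most 0.46 FPKM.

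Across the 8 genes, 6 had a log2 difference below 0 and 2 above 0, with a median of -0.10 beside -0.004 over all tested genes. The groups did not overlap for 1 of the 8, Akt1. Groups did not overlap for 22% of the 11301 tested genes, 12.1% lower and 9.92% higher with JAK inhibitor. Akt1 was also the 1 member past an adjusted p of 0.05 in the limma fit to all tested genes, which 0.133% of genes passed, 0.0973% in the lower direction. Since Akt1 entered through this contrast, nothing is read from these counts. In the plot of differences, 7 of the 8 genes lie within 0.501 of 0 on the log2 scale, and 6 within 0.187.

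**Figure D3:**
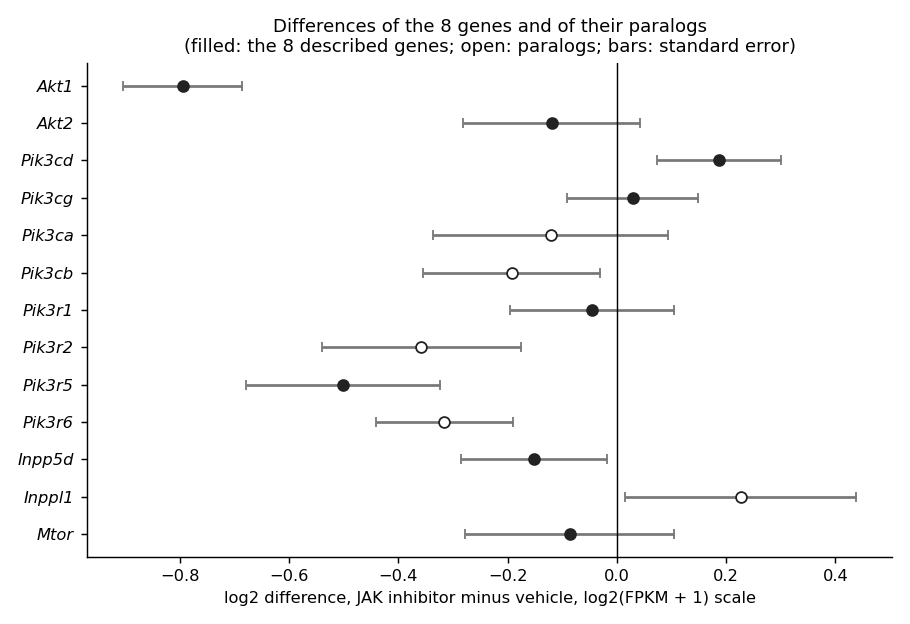
Log2 difference, JAK inhibitor minus vehicle, on the log2(FPKM + 1) scale (horizontal axis), for the 8 genes (filled circles) and for tested paralogs (open circles), with bars of 1 standard error. Akt1 lies at -0.80 and Pik3r5 at -0.50, whereas Akt2, Pik3cg, Pik3r1 and Mtor lie within 1 standard error of 0.

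The 8 genes also varied among the mice of a group. JAK inhibitor mouse 2 had the lowest Akt1, Akt2, Pik3r1 and Pik3r5 of its group and the highest Pik3cd, Pik3cg, Inpp5d and Mtor, and its library had the lowest FPKM sum. Pearson's r with Akt1 over the 6 libraries, on the log2(FPKM + 1) scale, was 0.81 for Pik3r5, 0.54 for Akt2, 0.37 for Inpp5d, 0.32 for Pik3r1 and 0.02 for Mtor. It was -0.36 for Pik3cg and -0.79 for Pik3cd. These values are descriptions, since Akt1 falls into separate clusters by treatment and the 6 points share those groups.

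In order of mean level over the 6 libraries, the genes were Akt1 at 124.2 FPKM, Inpp5d at 46.9, Pik3cd at 41.3, Pik3r5 at 26.6, Pik3cg at 22.6, Akt2 at 18.9, Pik3r1 at 6.01 and Mtor at 3.02. Akt1 had a higher mean than 91.2% of tested genes, and Mtor had a higher mean than 22.2%. Neighbours in this order were compared within libraries by an exact two-sided sign-flip permutation test over the 6 libraries, for which 0.031 is the smallest p possible. Akt1 exceeded Inpp5d in 6 of 6 libraries, 2.56 times on average (exact p = 0.031, adjusted over 7 pairs 0.0547). Akt2 exceeded Pik3r1 3.13 times and Pik3r1 exceeded Mtor 2.01 times, each in 6 of 6 libraries and with the same exact p. Pik3cg exceeded Akt2 1.21 times in 6 of 6 libraries, also with that p. Inpp5d and Pik3cd (5 of 6 libraries, exact p = 0.0938), Pik3cd and Pik3r5 (5 of 6, exact p = 0.0625) and Pik3r5 and Pik3cg (4 of 6, exact p = 0.312) differed in direction between libraries, and their ranges overlapped. Those of Pik3cg and Akt2 overlapped too. The order was taken from these same libraries, so the comparisons describe it. No adjusted p of the 7 pairs was under 0.05, and with 6 libraries none could be under 0.031.

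The rest of the pathway was described from a list of 113 genes in 12 groups by role, which includes the 8, and of which 103 were tested. In the limma fit 20 of the 103 had an unadjusted p under 0.05, or 19.4%, beside 16% of all tested genes. Of these, 12 were lower with JAK inhibitor (11.7%, beside 9.4% of all genes) and 8 were higher (7.77%, beside 6.57%). The 12 include Inpp4b, which reached 1 FPKM only in vehicle mice. Akt1 was the only gene of the 103 past the adjusted threshold, and it passed in 8 of 14 alternative settings and not in the other 6, among them leaving out any 1 JAK inhibitor mouse. Leaving out the 8 genes, 18 of 95 (18.9%) had an unadjusted p under 0.05, beside the same 16% of all tested genes. Of these 18, 10 were lower and 8 higher, and 0 of the 95 passed the adjusted threshold. The median log2 difference of the 103 was -0.002. Without the third vehicle mouse, 15 of the 103 had an unadjusted p under 0.05, beside 1504 of 11130 tested genes. Of the 15, 14 were among the 20. The 6 of the 20 no longer under 0.05 were Pik3r5, Pik3r6, Rptor, Tbc1d4, Adap2 and Dock2.

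None of the 4 catalytic subunits and none of the 3 tested class II and III PI3K genes had an unadjusted p under 0.05. Of all tested genes, 16% did. Of the 4 tested regulatory subunits, Pik3r5 and Pik3r6 did, both lower with JAK inhibitor, but neither did without the third vehicle mouse, where the log2 differences were -0.35 and -0.22. Among 9 phosphoinositide phosphatases, Inpp4a was higher and Inpp4b was lower. Inpp4a and Inpp4b are related enzymes that remove a phosphate from a product of SHIP1. Inpp4a was at 3.59 ± 0.723 FPKM with vehicle and 5.69 ± 0.561 with JAK inhibitor, and Inpp4b was at 1.38 ± 0.339 and 0.405 ± 0.280 FPKM (SD, n = 3). Their log2 differences were 0.55 (SE 0.18) and -0.77 (SE 0.24), and the limma adjusted p of Inpp4a was 0.188. Inpp4b reached 1 FPKM only in vehicle mice, so it passed the filter through the group where it was higher. Its difference is therefore a description and carries no test here.

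Phosphatases that act on Akt included the gene nearest to the adjusted threshold after Akt1. Ppp2cb, the beta catalytic subunit of protein phosphatase 2A, which dephosphorylates Akt among many substrates, was at 47.4, 43.0 and 41.6 FPKM in vehicle mice and 24, 17.4 and 26.4 FPKM in JAK inhibitor mice. The groups were well apart, and the log2 difference was -0.95 (SE 0.15, limma adjusted p = 0.0665). Its paralog Ppp2ca, the alpha catalytic subunit, was the more abundant at 244.9 ± 0.794 FPKM with vehicle and 227.7 ± 10.7 FPKM with JAK inhibitor (SD, n = 3), with a log2 difference of -0.11 (SE 0.08). The groups did not overlap for Ppp2ca either, at 244.2 to 245.8 FPKM with vehicle and 215.8 to 236.4 FPKM with JAK inhibitor. Of all tested genes, 12.1% were lower without overlap. The remaining 5 tested genes of this group, Ppp2ca included, had an unadjusted p above 0.05. The coding sequences of Ppp2ca and Ppp2cb are similar, and how reads were divided between them is not given in the sources used here.

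In the group of Akt-activating kinases and mTORC2 genes, which holds 8 genes with Mtor and Deptor among them, 1 was past an unadjusted p of 0.05, beside 16% of all tested genes. Prr5l, an mTORC2-associated protein, was at 0.25, 1.01 and 0.21 FPKM in vehicle mice and 2.29, 1.89 and 2.51 FPKM in JAK inhibitor mice, with a log2 difference of 1.15 (SE 0.25, limma adjusted p = 0.109). It was low in both groups but did not overlap between them. Of 11 tested genes of the mTORC1 arm, 2 were lower with JAK inhibitor at an unadjusted p under 0.05 (18.2%, beside 9.4% of all tested genes). They were Tbc1d7, a subunit of the TSC complex that restrains mTORC1, and Rptor, which encodes the mTORC1 scaffold raptor. The groups overlapped for Rptor and not for Tbc1d7. Tbc1d7 was at 15.2 ± 4.64 FPKM with vehicle and 8.33 ± 1.23 with JAK inhibitor, and Rptor at 4.36 ± 1.43 and 2.32 ± 1.13 FPKM (SD, n = 3). Their log2 differences were -0.76 (SE 0.21) and -0.71 (SE 0.28), with limma adjusted p of 0.150 and 0.267.

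Of 11 tested Akt substrates, 2 were lower and 1 was higher at an unadjusted p under 0.05, beside 9.4% and 6.57% of all genes. Bad, a proapoptotic protein that Akt phosphorylates, was at 97.4 ± 11.0 FPKM with vehicle and 76.2 ± 3.43 with JAK inhibitor (log2 difference -0.34). Tbc1d4, which controls glucose transporter traffic, had a log2 difference of -0.52, and Chuk, a kinase of the NF-kappaB pathway, had 0.32. The limma adjusted p of these 3 lay between 0.169 and 0.293.

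Genes known as targets of FoxO transcription factors were higher at an unadjusted p under 0.05 in 3 of 12 cases (6.57% of all tested genes were) and lower in 0 (9.4% of all). Ccng2, an atypical cyclin linked to growth arrest, was at 41.9, 40.0 and 33.0 FPKM in vehicle mice and 51.6, 58.8 and 46.5 FPKM in JAK inhibitor mice, without overlap (log2 difference 0.44, SE 0.13). Bcl6, a transcriptional repressor, had a log2 difference of 0.70 and Klf2, a transcription factor of leukocyte quiescence, had 0.58, with overlap for Klf2. None of the 3 passed the adjusted threshold (limma, adjusted p between 0.160 and 0.216). Other members of the list had values on both sides of 0. Bbc3 had 0.35 (SE 0.17) and Irs2, an insulin receptor adaptor, had -0.33 (SE 0.17), both without overlap. The groups overlapped for the rest. Sesn3 had 0.38 (SE 0.27) and Sesn1 had 0.27 (SE 0.21). Sesn3 reached 1 FPKM only in JAK inhibitor mouse 1. Gadd45a, a stress-response gene, had -0.27 (SE 0.16), Txnip had -0.12 (SE 0.10) and Cited2 had -0.11 (SE 0.09). Insr had -0.07 (SE 0.20) and Bcl2l11, which encodes BIM, had 0.01 (SE 0.20). Of the 12, 3 were higher and 1 was lower without overlap, beside 9.92% and 12.1% of all tested genes. The median log2 difference of the 12 was 0.14.

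Upstream of PI3K, 1 of 19 tested receptors and adaptors had an unadjusted p under 0.05, beside 16% of all tested genes. Csf2rb, the shared receptor subunit for GM-CSF and related cytokines that signal through a JAK kinase, was at 62.0, 54.5 and 90.3 FPKM in vehicle mice and 40.5, 45.4 and 43.5 FPKM in JAK inhibitor mice (log2 difference -0.63, SE 0.17, limma adjusted p = 0.147). Vehicle mouse 3 was the highest, and without it the log2 difference was -0.42. Csf2rb has a close copy in the mouse genome, so its level is uncertain where reads were shared. Among 14 effectors that bind phosphoinositides, Adap1 and Adap2, which act on Arf GTPases, had log2 differences of -0.48 and -0.99, and Sgk3, a kinase related to Akt, and Dock2, a Rac activator of leukocytes, had 0.49 and 0.34. For Adap2 vehicle mouse 3 was at 16.3 FPKM against 4.05 and 6.21 in the other vehicle mice, and without it the log2 difference was -0.48. Without the same mouse that of Dock2 was 0.19. None of these 4 passed the adjusted threshold (limma, adjusted p between 0.125 and 0.283).

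**Figure D4:**
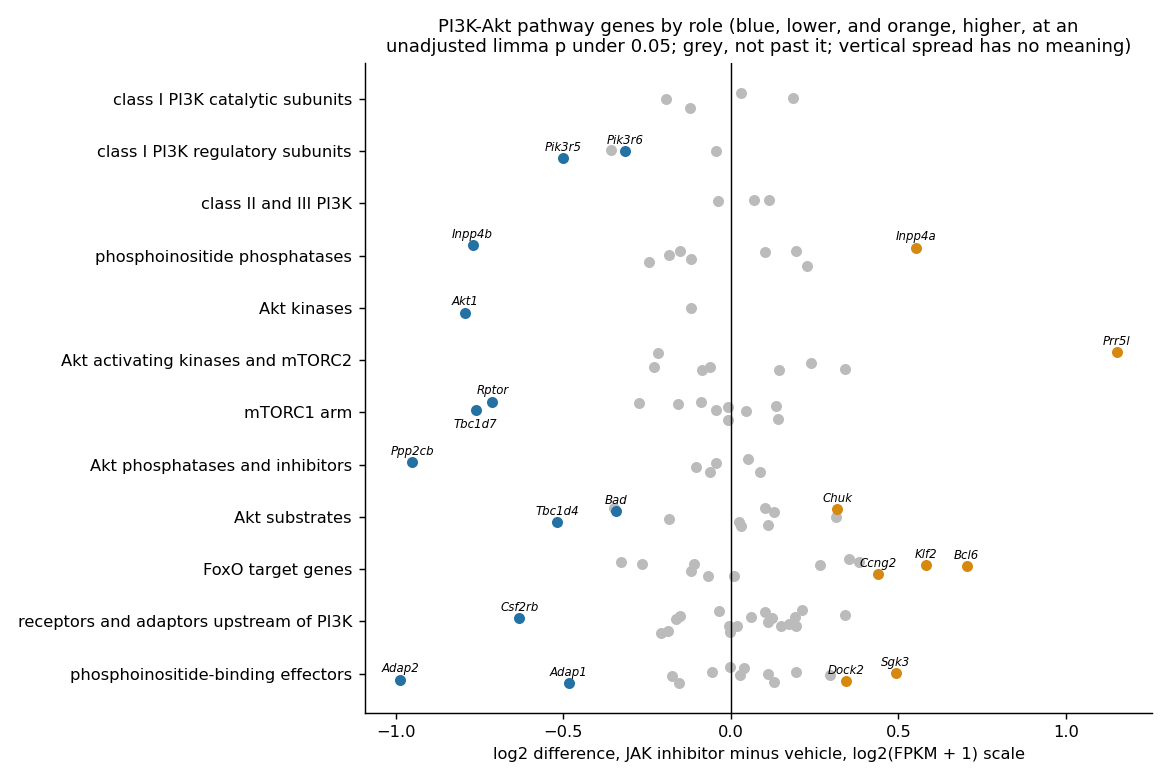
Log2 difference, JAK inhibitor minus vehicle, on the log2(FPKM + 1) scale (horizontal axis), for the 103 tested pathway genes in rows by role, with genes at an unadjusted limma p under 0.05 in blue (lower) or orange (higher) and named. There are 12 blue and 8 orange points, and most groups hold points on both sides of 0.

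Among the 6033 tested genes with a mean of at least 10 FPKM, the 5 whose level was most like that of Akt1 over the 6 libraries, by Pearson's r on the log2(FPKM + 1) scale, were Chil3 (0.997), Slc35b1 (0.997), Ppp2cb (0.988), Mtx1 (0.987) and Akr1a1 (0.985). Chil3, a secreted chitinase-like protein of myeloid cells, was at 10281, 8838 and 10575 FPKM in vehicle mice and 4044, 2945 and 4440 FPKM in JAK inhibitor mice. Like Akt1, it was lowest in JAK inhibitor mouse 2 and highest in vehicle mouse 3. The 5 most opposite were Mdp1 (-0.991), Klf10 (-0.981), Gnpnat1 (-0.981), Pigc (-0.979) and Snrnp27 (-0.978). With 6 libraries in separate groups, values this close to 1 or -1 mostly reflect the gap between the groups and carry no test. They do not mean a shared order of libraries, since Ppp2cb was highest in vehicle mouse 1 (47.4 FPKM) and Akt1 in vehicle mouse 3.

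Markers of other cell types moved with treatment beside these differences. The 8 osteoclast markers summed to between 175.1 and 644.0 FPKM in vehicle mice and between 116.7 and 124.1 FPKM in JAK inhibitor mice, and 6 of the 7 tested were lower at an unadjusted p under 0.05, beside 9.4% of all tested genes, with Calcr at 0 in every library. The 8 macrophage markers summed to between 699.1 and 859.6 FPKM with vehicle and between 513.0 and 635.9 with JAK inhibitor, and all 8 had lower means with JAK inhibitor, 4 of them at an unadjusted p under 0.05. The 8 natural killer cell markers summed to between 209.8 and 380.7 FPKM with vehicle and between 494.7 and 576.1 with JAK inhibitor, a sum made up mostly of Nkg7 (286.0 ± 105 and 515.1 ± 36.7 FPKM, SD, n = 3). Of the 8, 6 had lower means with JAK inhibitor. Of the 6 tested, 2 were lower and 1 was higher at an unadjusted p under 0.05 (9.4% and 6.57% of all genes). Erythroid markers summed to between 0.749 and 3.52 FPKM with vehicle and between 6.67 and 50.4 with JAK inhibitor.

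The sums of the monocyte and osteoclast precursor markers (4462 to 6299 FPKM with vehicle, 5704 to 6208 with JAK inhibitor), the neutrophil markers (16608 to 22526 and 16857 to 23534), the leukocyte-wide markers (6090 to 6906 and 6560 to 6997) and the dendritic cell markers (560.6 to 1069 and 438.5 to 646.8) overlapped between the groups. Single markers within them did not all overlap. Of the 8 monocyte and osteoclast precursor markers 2 were lower and 0 higher without overlap, beside 12.1% and 9.92% of all tested genes. At an unadjusted p under 0.05, 1 of these 8 was lower (9.4% of all). Of the 8 dendritic cell markers 7 had lower means with JAK inhibitor. Of the 6 tested, 2 were lower and 1 was higher at an unadjusted p under 0.05. Of the 7 neutrophil markers 3 were higher and 1 was lower at an unadjusted p under 0.05, beside 6.57% and 9.4% of all tested genes. Among the higher ones Elane was at 1924 FPKM on average with vehicle and 3880 with JAK inhibitor (log2 difference 1.12, SE 0.29), and Camp at 245.2 and 796.8 FPKM (1.64, SE 0.29), both without overlap. The list did not move as a whole, since 4 of the 7 had lower means with JAK inhibitor and the median log2 difference was -0.18. Of the 8 leukocyte-wide markers 4 were higher and 1 was lower without overlap, beside 9.92% and 12.1% of all tested genes. Ptprc was among the 4 higher (log2 difference 0.32, SE 0.09). The sums overlapped likewise for T cells, at most 10.1 FPKM, B cells, at most 36.2 FPKM with Ms4a1, Pax5 and Ebf1 at 0, mesenchymal cells and osteoblasts, at most 8.78 FPKM with Sp7 at 0, and endothelial cells, at most 42.2 FPKM. In every list 0 markers passed the adjusted threshold in the limma fit. The part of other cell types in the differences of Akt1 and of the pathway genes was not tested.

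**Figure D5:**
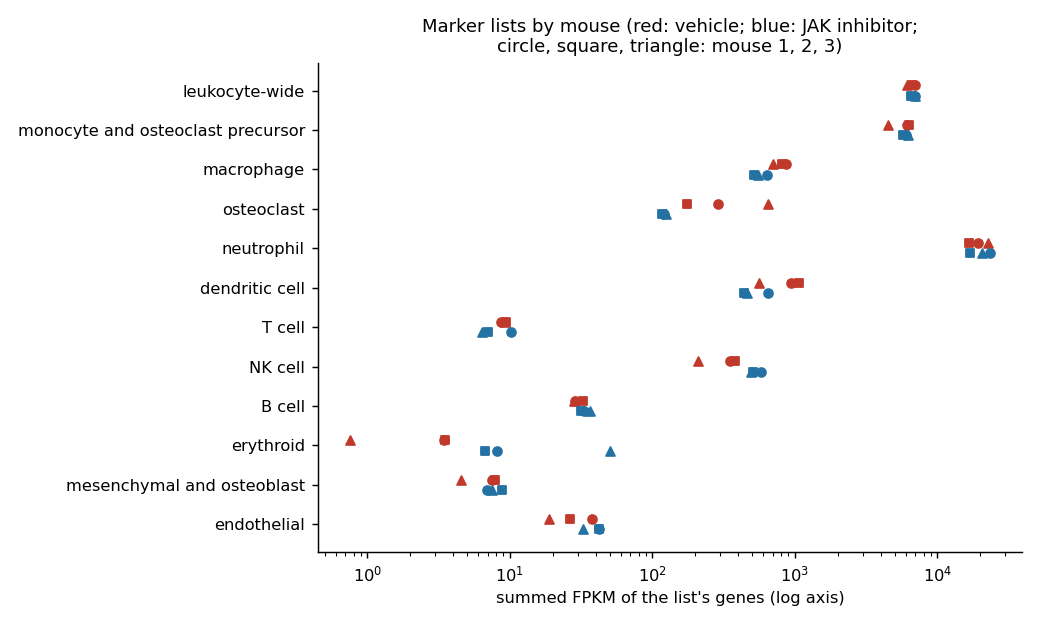
Summed FPKM of the markers of each cell type (horizontal log axis) in 3 vehicle mice (red) and 3 JAK inhibitor mice (blue), with a symbol for each mouse. Osteoclast and macrophage sums lay higher in every vehicle mouse, natural killer cell sums, made up mostly of Nkg7, and erythroid sums lay higher in every JAK inhibitor mouse, and the other lists overlapped.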

How the data were processed

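RNA from EGFP+ cells of 3 vehicle and 3 JAK inhibitor mice was sequenced, 1 library each. The authors deposited FPKM values per gene symbol and library, and per the labels' processing notes the tools were TopHat2 2.0.13, Bowtie2 2.2.3, SAMtools 0.1.19 and Cufflinks 2.2.1 with build mm10. The gene annotation and strand setting are not given in the sources used here. The labels name a SMART-Seq HT and Nextera preparation and the study's methods a TruSeq Stranded mRNA kit, and which was used is not settled. Depth is unknown, since no read counts were used. Genes at 1 FPKM or more in at least 1 library were tested on log2(FPKM + 1) with limma 3.58.1 in R 4.3.3, with a variance trend, an unpaired design and Benjamini-Hochberg adjustment. A fold on this scale understates the change of low genes. The threshold was an adjusted p of 0.05, and an unadjusted p of 0.05 is given as a description.

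The 8 genes and all lists were chosen with earlier results of these data known. Named were the 8 genes, their paralogs, in each pathway group every adjusted call and otherwise the 2 lower and 2 higher genes of smallest unadjusted p under 0.05, and the 5 genes most and least correlated with Akt1. Neighbours of Akt1, Ppp2ca, the FoxO targets without an unadjusted p under 0.05 and the marker genes were named besides, after their values were seen. Some listed genes are not reported here and were left out of the pathway counts. Gene positions are from GENCODE M21 and promoters from RefSeq (GRCm38.p6), the build of the files. Alternatives were a pseudocount of 0.1, no filter, a filter of 1 FPKM in 3 libraries, quantile and median ratio scaling, no trend, library weights, a replicate block and leaving out each mouse. The labels give no batch, and nothing beyond separate mice is known of the replicates.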

Additional observations from a re-analysis of the deposited data

How the results depend on the processing

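The log2 difference of Akt1 stayed between -0.87 and -0.69 over 14 alternatives, that of Pik3r5 between -0.69 and -0.35, that of Pik3cd between 0.11 and 0.25 and that of Inpp5d between -0.25 and -0.01. Either change of filter, the fit without the trend and the replicate block cannot alter these differences. The ranges and the sign changes therefore rest on the other alternatives. Sign changes occurred under 1 of 14 alternatives for Akt2, Pik3cg and Mtor and under 2 for Pik3r1, all with values close to 0. The count of all genes past the adjusted threshold was 15 and moved most, to 2 without a filter, 2 without the trend, 34 with a filter of 1 FPKM in 3 libraries and 63 with library weights, and to between 3 and 95 when 1 mouse was left out. It was 3 without JAK inhibitor mouse 3, 5 without mouse 1 and 6 without mouse 2, and 19, 95 and 94 without vehicle mice 1, 2 and 3. Akt1 itself was past the threshold in 8 of the 14 alternatives, and Ppp2cb in 4. The cause was not tested. The 20 pathway genes at an unadjusted p under 0.05 numbered between 17 and 21 under the other settings and between 14 and 20 with 1 mouse left out. No link between mice with the same number in both groups is given in the sources used here. Correlations of their deviations were 0.02, 0.05 and -0.0002, beside -0.04 to 0.02 for pairs with different numbers. Whether same-numbered mice share a batch was not tested. A fit with the replicate block gave 67 genes past the adjusted threshold, and 21 pathway genes at an unadjusted p under 0.05, 20 of them shared. Depth is unknown, so differences of genes near 1 FPKM, such as Inpp4b and Prr5l, cannot be weighed by counting error.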
